A study of Rattus norvegicus with 18 samples.

Results

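The imprinted genes Ndn, Peg3, Apeg3, Dlk1, Meg3, Igf2, H19 and Plagl1, 8 genes linked to growth, were followed in oligodendrocyte progenitor cells (OPCs), the dividing glia that form myelinating oligodendrocytes. They are 8 of the 17337 genes in the files, and the set was put together because Ndn and Apeg3 were lower in aged cells in every setting of these same libraries. By symbol 7 of them were found, and Meg3 was found by its RefSeq accession under the symbol RGD1566401. Sequencing of total RNA covered bead-enriched (MACS) OPCs of rats, in 6 groups of 3 libraries: aged or neonate cells cultured on soft hydrogels, aged or neonate cells cultured on stiff hydrogels, and aged or neonate primary cells as sorted. Gels were coated with laminin, and the culture medium held FGF and PDGF. For primary cells only a letter in the title (A or N) gives the age, no label gives an age in days or months, and no label ties a library to an animal. The p-values below therefore rest on differences among libraries that could be technical repeats.

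Imprinted genes are expressed mainly from the copy inherited from 1 parent, under the control of differential DNA methylation set in the germ line. Many act on fetal growth, and paternally and maternally expressed members often sit side by side: Dlk1 beside Meg3, and Igf2 beside H19. In the brain several of them are known from the development of neurons and neural progenitors, and some can lose their one-sided expression in particular tissues, as Igf2 does in the mouse choroid plexus and leptomeninges. The libraries measured total RNA of a gene and not which parental copy it came from.

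Depth was low. Coverage of annotated exons came to between 33940 and 141900 read pairs per library, counted as equivalents of 300 bases, and 41.4% of the values of tested genes were 0. Levels are in scaled TPM: TPM is a share of all transcripts corrected for length, and a factor per library then sets libraries on a like scale. Throughout, libraries are listed in the order of replicates 1, 2 and 3. A read pair on Ndn was worth 3.95 to 17.9 TPM before scaling, so a value of 0 means that no read was assigned and not that a gene was silent. Where a group is at or near 0, the size of a log2 difference depends on the 1 added to each value. Replicate 1 of each aged group had reads spread widely, with 54.7% to 77.2% of 1197 olfactory receptor genes above 0, and these 3 are called the broad libraries. The remaining aged soft libraries had 30.8% and 39.2% of them above 0, so that all aged soft libraries exceeded the 2.01% to 18.9% of the neonate soft ones.

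The label of the cells was checked against 9 OPC markers, which were detected in every library, 7 to 9 of them at a time. Their summed level was 317 to 650 scaled TPM in aged soft and 1258 to 1575 in neonate soft libraries. It was 79.4 to 444 in aged stiff and 894 to 1657 in neonate stiff libraries, and 86.2 to 186 in aged primary and 770 to 872 in neonate primary libraries. In every setting the aged libraries thus lay below all neonate libraries in the summed markers of the cell type itself. Taken singly, 2 of the 9 had a positive difference, aged minus neonate, on soft gels, 2 on stiff gels and 0 in primary cells. By limma 2 of the 9 fell with age on soft gels, 2 on stiff gels and 3 in primary cells, against 0.191%, 1.05% and 0.66% of all tested genes. The 10 microglia markers, all of them above 0 in each aged primary library, summed to 2207 to 4539 there and to 87.3 to 166 in neonate primary cells. On gels the same markers summed to 182 to 361 in aged soft and 8.04 to 36.3 in neonate soft libraries, and to 43.6 to 374 in aged stiff and 0 to 8.71 in neonate stiff libraries. All aged libraries of a setting thus lay above its neonate ones in microglia markers, and the part of these cells in the age differences was not tested. The 8 choroid plexus markers, of which Ttr made up most, summed to 1468 to 7038 in aged primary and 275 to 1227 in neonate primary cells, against at most 98.7 in any gel library. In bulk RNA fewer cells of a type and less RNA of a gene per cell cannot be told apart.

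The promoters of Ndn, Peg3 and Apeg3 are printed because these 3 genes carry the age pattern described below, and because they differ in CpG content. Sequences are from the RefSeq promoter table on build GRCr8 and run from 250 bases before to 50 bases after the annotated start, on the strand of the gene, with CG dinucleotides in capitals. The windows lie at chr1:125260809-125261108 (plus strand) for Ndn, chr1:76130744-76131043 (plus strand) for Peg3 and chr1:76155366-76155665 (minus strand) for Apeg3.
Ndn: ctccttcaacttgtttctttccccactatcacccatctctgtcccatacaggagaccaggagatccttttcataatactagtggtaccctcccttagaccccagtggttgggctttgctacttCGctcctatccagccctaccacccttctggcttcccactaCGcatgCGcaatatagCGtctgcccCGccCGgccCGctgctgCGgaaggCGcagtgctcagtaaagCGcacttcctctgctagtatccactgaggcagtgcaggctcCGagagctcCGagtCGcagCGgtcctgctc
Peg3: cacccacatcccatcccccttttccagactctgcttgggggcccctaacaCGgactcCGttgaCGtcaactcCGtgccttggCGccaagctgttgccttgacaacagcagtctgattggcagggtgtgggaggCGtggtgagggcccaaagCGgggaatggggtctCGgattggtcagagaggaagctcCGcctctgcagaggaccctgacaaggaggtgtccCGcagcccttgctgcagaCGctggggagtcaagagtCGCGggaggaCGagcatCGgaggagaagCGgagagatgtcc
Apeg3: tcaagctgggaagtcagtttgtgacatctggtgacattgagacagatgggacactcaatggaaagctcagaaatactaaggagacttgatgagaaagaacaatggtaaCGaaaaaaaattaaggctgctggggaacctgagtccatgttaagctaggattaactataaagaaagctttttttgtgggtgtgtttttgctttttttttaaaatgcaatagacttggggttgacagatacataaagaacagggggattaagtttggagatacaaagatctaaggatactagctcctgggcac
Ndn had 14 CpGs in this window and Peg3 had 16, against a median of 7 among the 33469 windows of the table. At least as many were present in 33.5% of all windows for Ndn and in 30.5% for Peg3. Apeg3 had 1 CpG, and 94.5% of all windows held at least as many. On build rn6 the 250 bases before its start (chr1:70235091, minus strand) lie inside the last exon of Peg3 (chr1:70229613-70237450). Among the other members with an entry, Dlk1 had 45, a number reached by 1.66% of windows, Plagl1 had 29, Meg3 had 13, and the pair of Igf2 starts had 19 and 7. The 9 letters AAGATGGCG, on either strand, were searched as the core of the motif that the factor YY1 binds; they were in 580 of all windows (1.73%) and in none of the members' windows. Bases beyond these windows were not searched, so a match further inside or outside a gene would be missed. CpG counts and letter matches describe the sequence only, and methylation was not measured.

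Ndn was the member with the widest gap between ages. It encodes necdin, a protein of the MAGE family that restrains the cell cycle in neural progenitors and is expressed from the paternal copy in the Prader-Willi region (rn6 chr1:122981755-122983354, plus strand, 1 transcript of 1600 bases). On soft gels it was at 0, 0 and 2.34 scaled TPM in aged libraries and 169, 224 and 126 in neonate libraries. Stiff gel values were 17.4, 0 and 0 in the aged and 78.3, 30.7 and 85.7 in the neonate libraries. In primary libraries the values were 4.54, 0 and 0 (aged libraries) and 65.1, 19.3 and 56.0 (neonate libraries). Every neonate library lay above every aged library in all 3 settings, and the highest neonate values were those on soft gels.

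The reads behind these levels were few in aged cells. All 9 aged libraries together held 3.42 read pairs of Ndn, with 6 of them at 0, whereas the 9 neonate libraries held 154.7 pairs and none was at 0. Coverage over all genes was alike between the ages, at 629600 pairs in aged and 607200 in neonate libraries. The aged soft library with any Ndn was replicate 3, and the aged stiff and aged primary ones were both broad libraries. On the log2(scaled TPM + 1) scale the difference, aged minus neonate, was -6.83 on soft gels, -4.51 on stiff gels and -4.58 in primary cells, each with an SE of 1.03. These contrasts chose the gene, so no test is given. The median difference of all 15144 tested genes was 0.86, 0.49 and 0.69 in the same settings.

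Peg3 and Apeg3 share a locus. Peg3 is a paternally expressed zinc finger gene (rn6 chr1:70210849-70237450, plus strand, 9 exons and 8683 bases of transcript). Apeg3 is a noncoding RNA read from the other strand (rn6 chr1:70234160-70235091, minus strand), and its 932 bases lie wholly inside exon 9, the last exon of Peg3. The kit keeps strand but the authors' quantification was run without a strand option, so reads over those bases could not be assigned to 1 of the pair by strand.

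Peg3 was at 8.66, 8.17 and 23.9 scaled TPM in aged soft libraries and 54.8, 58.0 and 64.8 in neonate soft libraries. It was at 11.6, 6.25 and 10.8 in aged stiff and 55.6, 45.9 and 81.9 in neonate stiff libraries. Primary cells were at 15.9, 0.970 and 11.4 in the aged and 34.5, 28.3 and 28.8 in the neonate libraries. No aged library reached the lowest neonate library of its setting, and aged primary replicate 2 was the lowest of all 18. The differences, aged minus neonate, were -2.21 on soft gels, -2.56 on stiff gels and -2.08 in primary cells on the log2(scaled TPM + 1) scale (SE 0.767 each). Without aged primary replicate 2 the primary cell difference was -1.1.

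Per base of transcript Apeg3 was far more abundant. It was at 436, 280 and 819 scaled TPM in aged soft libraries and 3522, 2782 and 3240 in neonate soft libraries. On stiff gels the level was 316, 731 and 1927 (aged libraries) and 2349, 2544 and 3225 (neonate libraries). Sorted primary cells stood at 252, 487 and 540 in the aged and 1686, 1712 and 1570 in the neonate libraries. Aged and neonate libraries did not overlap in any setting, although aged stiff replicate 3 came near the neonate range. The differences, aged minus neonate, were -2.77, -1.81 and -2.03 on soft gels, on stiff gels and in primary cells (SE 0.487 each). Without aged stiff replicate 1 the stiff gel difference was -1.15. By TPM, Apeg3 ranked 9 to 80 of 17337 genes across the aged and 7 to 14 across the neonate libraries, with aged stiff replicate 3 at rank 9.

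**Figure D1:**
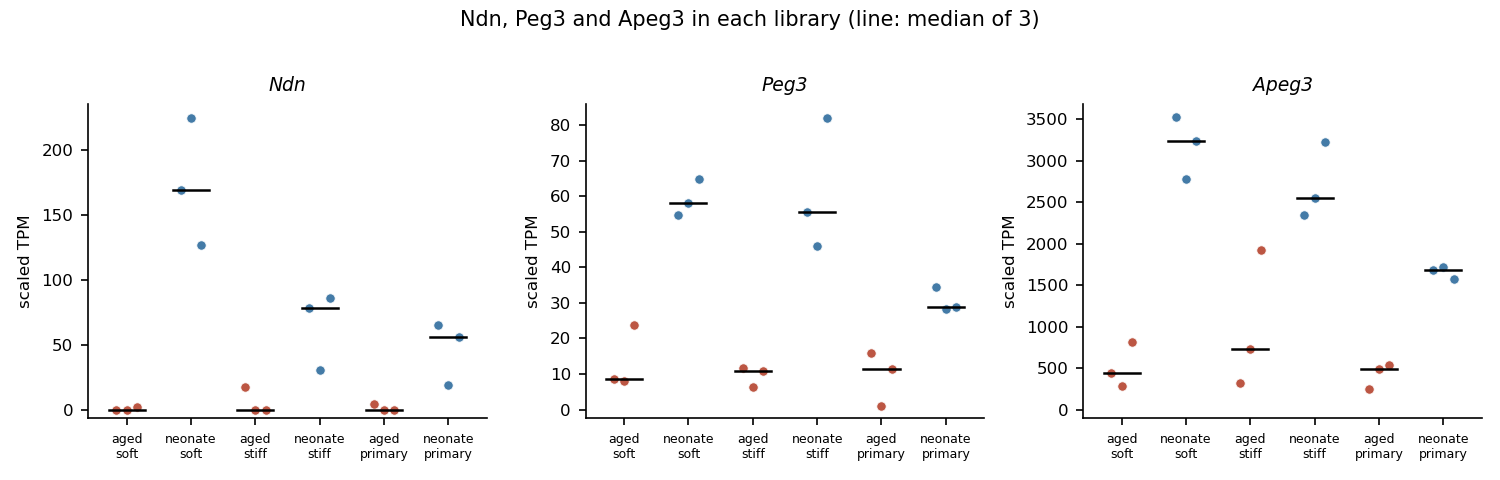
Scaled TPM of Ndn, Peg3 and Apeg3 (vertical axes, each from 0) in the 18 libraries by group (horizontal axis), with aged libraries in red, neonate libraries in blue and a line at the median of 3. In each setting every aged point lies below every neonate point, and 6 of the 9 aged points of Ndn are at 0.

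Exons 1 to 8 of Peg3, 845 bases with no part of Apeg3, allowed a count free of the overlap. They held 5.81 read pairs over the 9 aged libraries, with 5 of these at 0, and 37.7 pairs over the 9 neonate libraries, with none at 0. Fewer reads of Peg3 in aged cells were thus also found in the bases that Apeg3 does not touch, although the ages overlapped there in primary cells. Apeg3 itself held 538.9 pairs in aged and 2229 pairs in neonate libraries. Coverage per base of Apeg3 was 17.4 to 454 times that of Peg3 exon 9, with a median of 49.2 times. The highest ratio was that of aged primary replicate 2, where exon 9 held 0.857 pairs.

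**Figure D2:**
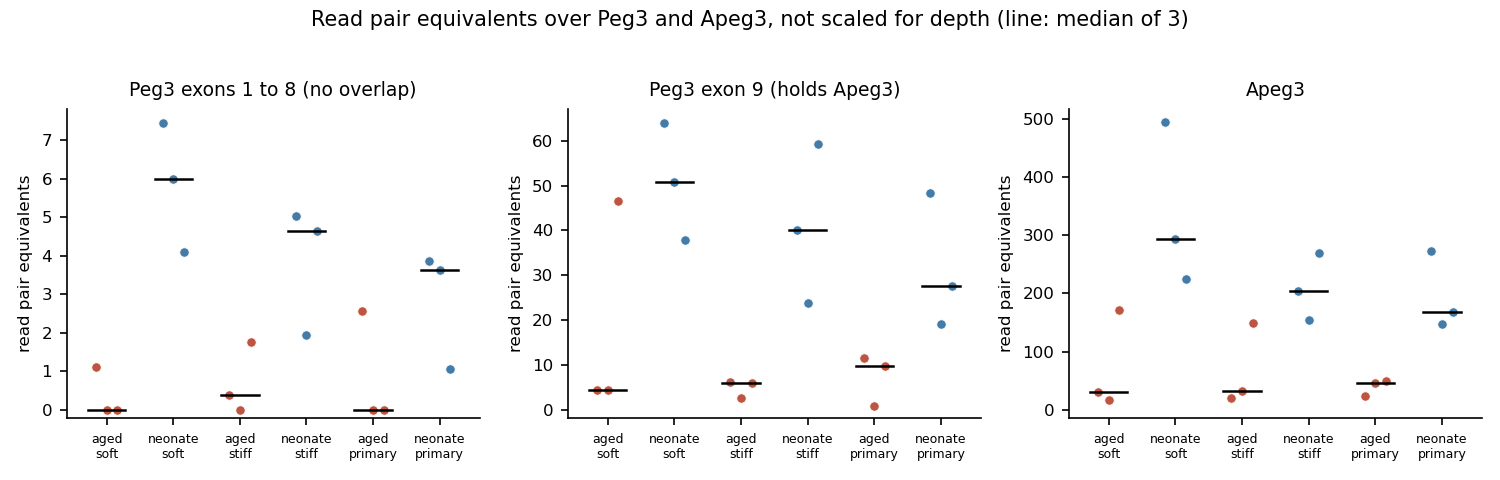
Read pair equivalents (coverage times length divided by 300 bases, not scaled for depth) over exons 1 to 8 of Peg3, over its exon 9 and over Apeg3, by group, with aged libraries in red, neonate libraries in blue and a line at the median of 3. The bases free of overlap hold at most 2.57 pairs in any aged library and at least 1.07 in any neonate library.

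In aged libraries of every setting Ndn, Peg3 and Apeg3 were thus below all neonate libraries, 3 of the 8 members, where 0.66% of the tested genes were below in all settings. Per setting, 3.68% of the tested genes were below on soft gels, 4.79% on stiff gels and 4.97% in primary cells. The members were picked for this contrast, and nothing is read from these shares.

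The summed OPC markers moved the same way, and the members were set against that sum. As a percentage of the summed OPC markers, Ndn was 0, 0 and 0.36 in aged soft and 13.4, 14.6 and 8.02 in neonate soft libraries. In primary cells it was 3.58, 0 and 0 (aged libraries) and 7.97, 2.5 and 6.43 (neonate libraries), so that the ranges overlapped by the broad library. On stiff gels the aged values were 7.25, 0 and 0 and the neonate values 8.76, 2.67 and 5.17, again with the broad library inside the neonate range.

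For Peg3 and Apeg3 the order of the ages held on this measure on soft gels only. Apeg3 was 198%, 566% and 291% of the OPC markers in aged primary and 206%, 222% and 180% in neonate primary libraries. On stiff gels it was 132%, 920% and 434% in the aged and 263%, 221% and 195% in the neonate libraries. On soft gels it was 128%, 88.3% and 126% (aged libraries) and 280%, 181% and 206% (neonate libraries), and there every aged library stayed below. Peg3 was likewise lower than in neonate cells on soft gels alone, at 2.54%, 2.58% and 3.67% in the aged and 4.35%, 3.78% and 4.12% in the neonate libraries.

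Expressed as differences of log2 values relative to the marker sum, aged minus neonate, Apeg3 was at 0.65 in primary cells, 0.73 on stiff gels and -0.96 on soft gels. Peg3 was at 0.61, -0.02 and -0.40 in the same order, and Ndn at -1.90, -1.97 and -5.02. The highest Apeg3 percentages in aged primary and aged stiff libraries were both those of replicate 2. These libraries had the lowest marker sums of their groups, 86.2 and 79.4 scaled TPM, so the positive differences lean on them. The measure was chosen after the data were seen and was not recomputed with a library left out. The part of OPC content in the age differences was not tested in any other way.

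**Figure D3:**
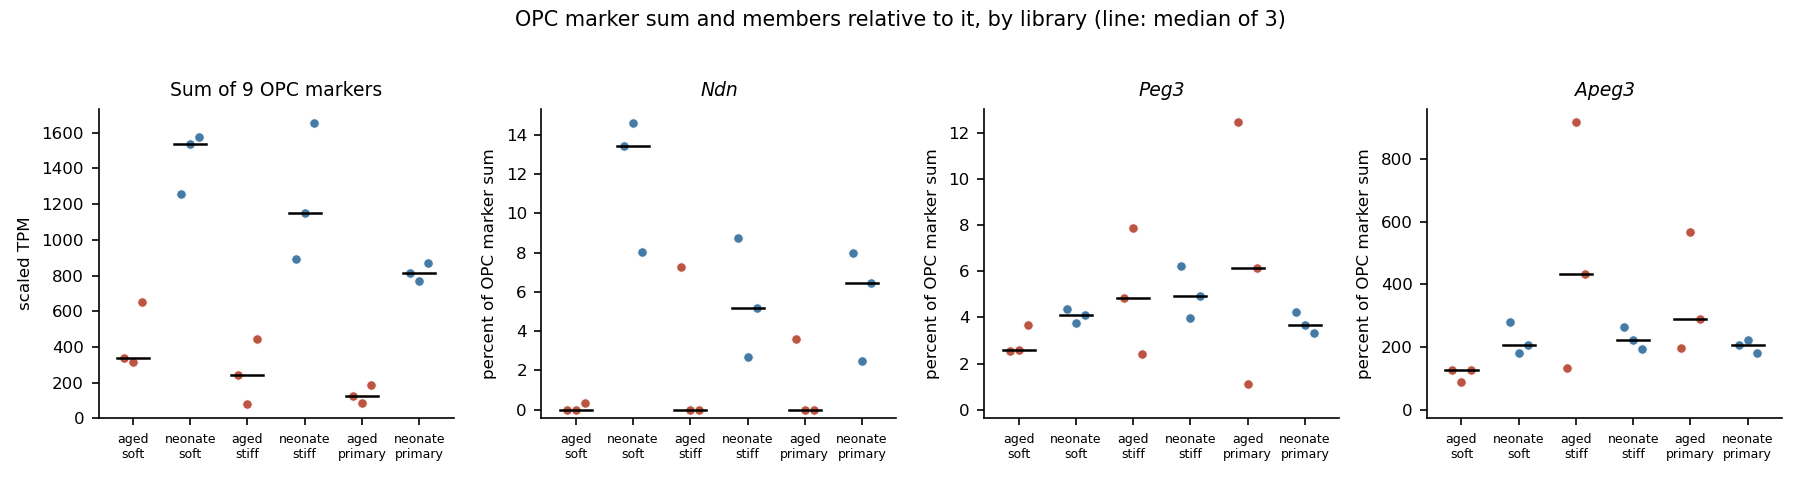
Summed scaled TPM of 9 OPC markers (left) and Ndn, Peg3 and Apeg3 as a percentage of that sum, in the 18 libraries by group, with aged libraries in red, neonate libraries in blue and a line at the median of 3. The aged points lie below the neonate points for the marker sum in each setting, whereas for Peg3 and Apeg3 relative to it they do so on soft gels only.

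Neuronal markers were also read, since Ndn is abundant in neurons. The 10 markers summed to 27.3 to 67.6 scaled TPM in aged soft and 25.9 to 61.5 in neonate soft libraries, where Ndn differed most. In primary cells they summed to 10.1 to 87.7 in aged and 94.1 to 246 in neonate libraries. On stiff gels they summed to 0 to 97.6 in aged and 48.1 to 117 in neonate libraries. The sums of the ages overlapped on both gels and did not overlap in primary cells, and their part in the Ndn differences was not tested.

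The genes most like these 3 members across the 18 libraries were ranked by Pearson correlation of log2(scaled TPM + 1), as a description. For Ndn they were Camk2n2 (r = 0.91), Rap1gap, Midn, Slitrk2 and Tubb2b (r = 0.87). For Peg3 they were Zeb1 (r = 0.91), Midn, Tuba1a, Mtss1l and Tubb2b (r = 0.87), and for Apeg3 Lims2 (r = 0.91), Zfhx2, Tsr2, Ddx39b and Nemf (r = 0.88). Midn and Tubb2b stood in the lists of both Ndn and Peg3, whereas the list of Apeg3 had none of theirs. The points share their libraries, scaling and age groups.

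Meg3 and Dlk1 lie 75.2 kb apart on chromosome 6. Meg3 is a maternally expressed long noncoding RNA (rn6 chr6:133658937-133691129, plus strand), and Mir770 lies within its span. On soft gels it was at 6.17, 4.56 and 5.06 scaled TPM in aged and 1.22, 3.38 and 0 in neonate libraries. Cells on stiff gels were at 3.99, 0 and 0 (aged libraries) and 0.602, 0 and 0 (neonate libraries). For primary cells the values were 13.9, 7.08 and 11.8 in the aged and 15.9, 8.15 and 10.2 in the neonate libraries.

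The gel libraries of each age all lay below the primary libraries of that age, a separation seen for 2.93% of the tested genes in aged and 2.4% in neonate cells. The difference, gels minus primary, was -1.82 in aged cells (SE 0.916, limma, adjusted p = 0.54) and -2.92 in neonate cells (SE 0.916, limma, adjusted p = 0.452). It did not pass the threshold of 0.05 at either age, and no library held more than 5.21 read pairs. On soft gels all aged libraries were above all neonate libraries, by 1.55 on the log2 scale, which was -0.0119 after quantile normalization. Among the 5 genes most like Meg3 were Prodh (r = 0.89) and Ttr (r = 0.88), the main choroid plexus marker. The part of choroid plexus RNA in the level of Meg3 was not tested.

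Dlk1, a transmembrane relative of the Notch ligands expressed from the paternal copy (rn6 chr6:133576568-133583748, plus strand), was scarcely detected. It was at 17.1, 0 and 0 scaled TPM in aged soft and 28.3, 0 and 6.04 in neonate soft libraries, and at 10.2, 0 and 10.2 in aged primary libraries. All 6 stiff gel libraries and all 3 neonate primary libraries were at 0. The 9 aged libraries held 5.11 read pairs in all and the 9 neonate libraries 7.24 pairs. At this depth no difference in Dlk1 was detectable: gels minus primary was -1.63 in aged (SE 1.10, limma, adjusted p = 0.747) and 1.28 in neonate cells (SE 1.10, limma, adjusted p = 1).

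Igf2 and H19 lie 81.0 kb apart on chromosome 1. Igf2 encodes a paternally expressed growth factor (rn6 chr1:215828102-215838209, minus strand, 3 transcripts, with Mir483 inside). On soft gels it was at 2.11, 3.50 and 0.530 scaled TPM in aged and 0, 0.345 and 2.46 in neonate libraries. Aged stiff libraries were at 0, 11.5 and 0, and all neonate stiff libraries were at 0. The primary values were 15.6, 6.37 and 46.0 (aged libraries) and 1.25, 3.48 and 7.25 (neonate libraries).

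The highest values of all 18 libraries were thus those of aged primary replicates 3 and 1, but the lowest aged primary value lay within the neonate primary range. Gels minus primary was -2.82 in aged cells (SE 1.03, limma, adjusted p = 0.278) and -1.76 in neonate cells (SE 1.03, limma, adjusted p = 1). The voom test on read equivalents called the aged difference (adjusted p = 0.0342), and over all settings tried the adjusted p ran from 0.0342 to 0.756. Replicate 3 was also the aged primary library with the highest sums of choroid plexus markers (7038) and microglia markers (4539). Replicate 2, with the lowest Igf2, had the lowest choroid plexus sum (1468). P2ry12, a microglia marker, was among the 5 genes most like Igf2 (r = 0.85), after Tbc1d9 and Il16 (r = 0.86 each). Whether RNA of those cell types set the level of Igf2 was not tested.

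H19 is a maternally expressed long noncoding RNA that holds Mir675 (rn6 chr1:215744404-215747080, minus strand). It was at 18.7, 9.38 and 13.7 scaled TPM in aged soft and 2.61, 13.2 and 20.0 in neonate soft libraries. The stiff gel values were 4.66, 8.81 and 0 in the aged and 7.79, 19.5 and 2.95 in the neonate libraries. All aged primary libraries were at 0, and the neonate primary libraries were at 2.53, 0 and 3.64. Most gel libraries were above the primary ones at both ages, the opposite order to Igf2, with overlap in single libraries. Aged soft libraries all lay above aged stiff libraries, as 6.63% of the tested genes did.

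Gels minus primary was 2.89 for H19 in aged cells (SE 0.965, limma, adjusted p = 0.195) and 1.91 in neonate cells (SE 0.965, limma, adjusted p = 1). The voom test called the aged difference (adjusted p = 0.0104), and over all settings the adjusted p ran from 0.0104 to 0.668. The 9 aged libraries held 13.4 read pairs of H19 and the 9 neonate libraries 15.1 pairs. Soft minus stiff was 1.92 in aged cells (SE 1.11, limma, adjusted p = 0.56) and 0.20 in neonate cells (SE 1.11, limma, adjusted p = 1).

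Plagl1 encodes a paternally expressed zinc finger factor that in mice acts on a network of imprinted genes including Igf2, H19 and Dlk1 (rn6 chr1:7219587-7259536, plus strand). It was at 11.9, 11.3 and 4.41 scaled TPM in aged soft libraries and at 0 in all neonate soft libraries. Stiff gel values were 3.06, 0 and 6.95 (aged libraries) and 2.16, 1.57 and 3.68 (neonate libraries). Primary cells were at 5.21, 1.83 and 2.03 in the aged and 4.99, 30.2 and 14.3 in the neonate libraries. The order of the ages thus differed by setting: aged soft libraries were all above neonate soft ones, and on stiff gels and in primary cells the ages overlapped.

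In neonate cells all gel libraries were below all primary libraries for Plagl1, by -2.95 (SE 0.932, limma, adjusted p = 0.452), and voom called this difference. In aged cells gels minus primary was 0.55 (SE 0.932, limma, adjusted p = 0.946). The test of whether the culture difference itself depended on age gave 3.50 (SE 1.32, limma, adjusted p = 0.663), and for the stiffness difference it gave 3.33 (SE 1.52, limma, adjusted p = 0.936). Neither passed the threshold. Plagl1 rested on 20.8 read pairs in aged and 28.8 pairs in neonate libraries.

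**Figure D4:**
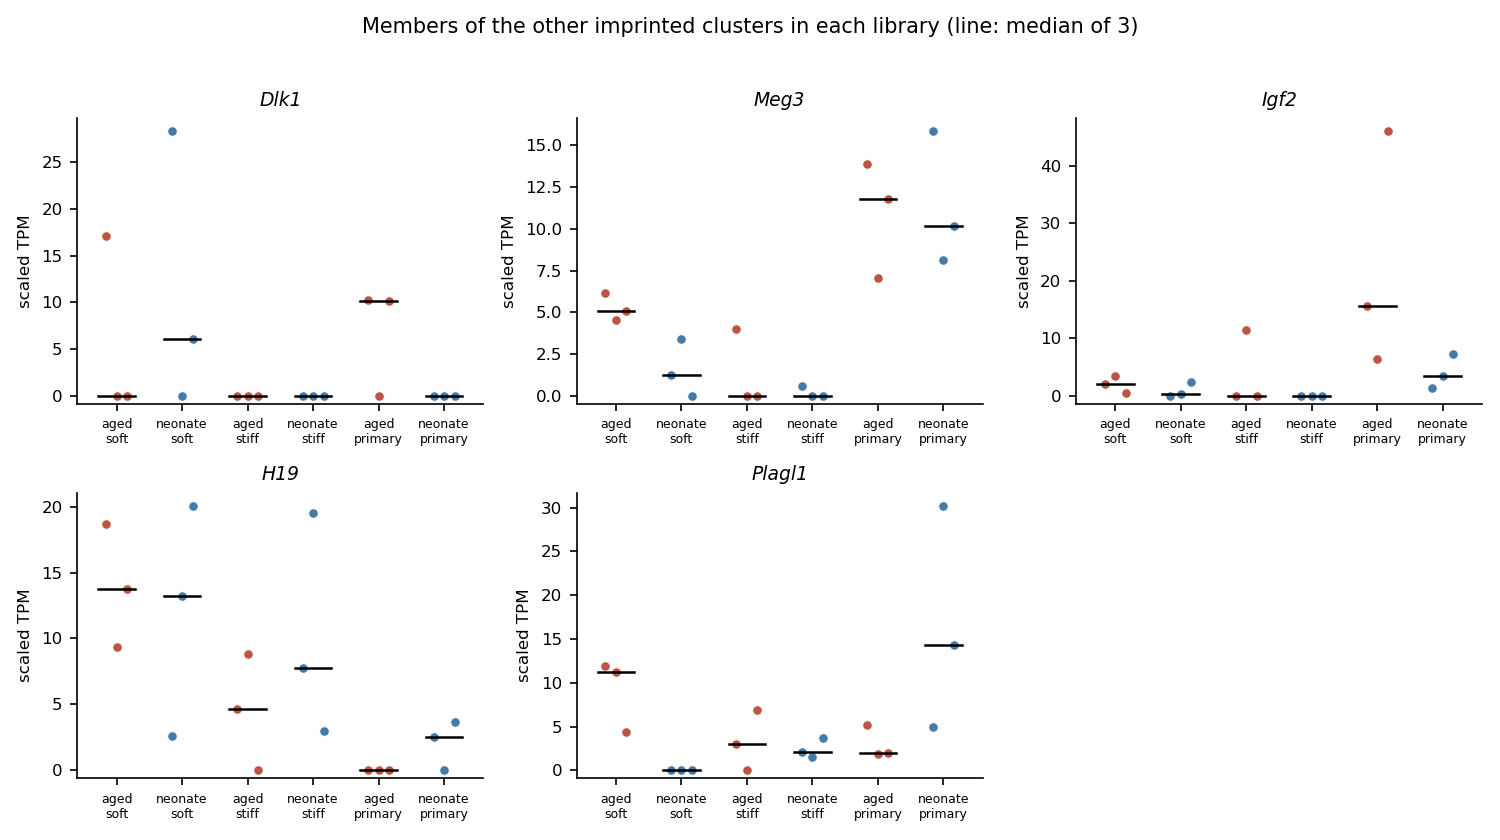
Scaled TPM of Dlk1, Meg3, Igf2, H19 and Plagl1 (vertical axes, each from 0) in the 18 libraries by group, with aged libraries in red, neonate libraries in blue and a line at the median of 3. Meg3 is lower on gels than in primary cells at both ages, H19 is at 0 in all aged primary libraries, and Plagl1 is at 0 in all neonate soft libraries.

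On soft gels Meg3 and Plagl1 were the 2 of 8 members whose aged libraries all lay above the neonate ones, as 16% of the tested genes did. No member did so on stiff gels, where 5.61% of the tested genes did, or in primary cells, where 11.1% did. From these contrasts, which are those the set was picked on, nothing is read. All aged soft libraries also had more olfactory receptor genes above 0 than the neonate soft ones, and the part of that spread of reads was not tested.

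The comparison of soft with stiff gels asks how the compliance of the substrate bears on expression at each age. Of the 8 members, 0 were called by limma in aged cells, 0 had an unadjusted p below 0.05 and 0 were called by voom. The adjusted p ran from 0.542 to 0.972. Of all 15144 tested genes 0.0792% were called and 1646 had an unadjusted p below 0.05. In neonate cells 0 were called by limma, 0 had an unadjusted p below 0.05 and 0 were called by voom, with an adjusted p of 1 for each member and 0% of all tested genes called. Among all tested genes 438 had an unadjusted p below 0.05 there.

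Of the genes lower in aged cells, Ndn had the widest gap between gels in neonate cells. With all neonate soft libraries above all neonate stiff ones, as for 3.8% of the tested genes, soft minus stiff was 1.5 (SE 1.03, limma, adjusted p = 1). Plagl1 went the other way, with all neonate soft libraries below all neonate stiff ones, as for 2.53% of the tested genes (soft minus stiff -1.75, SE 1.08, limma, adjusted p = 1). Dlk1, at 0 on stiff gels, differed by 2.56 (SE 1.27, limma, adjusted p = 1). In aged cells Ndn was at 0 in 4 of 6 gel libraries and no direction could be read. Apeg3 differed by -0.72 in aged (SE 0.487, limma, adjusted p = 0.649) and 0.24 in neonate cells (SE 0.487, limma, adjusted p = 1). Peg3 differed by 0.34 in aged (SE 0.767, limma, adjusted p = 0.918) and -0.01 in neonate cells (SE 0.767, limma, adjusted p = 1). The median of all genes was 0.59 in aged and 0.02 in neonate cells.

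Between gels and primary cells 0 of the 8 members were called by limma in aged cells, where 1.11% of all tested genes were called. An unadjusted p below 0.05 was found for 2 of them, Igf2 and H19, and for 1475 of the 15144 tested genes. Voom called the same 2. In neonate cells 0 of the 8 were called by limma, against 0.099% of all tested genes. There 2 members, Meg3 and Plagl1, had an unadjusted p below 0.05, as did 712 of the tested genes. Voom called 2 members, Apeg3 and Plagl1. The share of all genes that voom called was not counted for any comparison, so nothing is read from the voom counts.

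Of the genes with the age pattern, Apeg3 and Peg3 were higher in every neonate gel library than in every neonate primary library, as were 1.22% of the tested genes. Gels minus primary was 0.82 for Apeg3 (SE 0.422, limma, adjusted p = 1) and 0.94 for Peg3 (SE 0.664, limma, adjusted p = 1). Without scaling these were -0.33 and -0.18, where the median of all genes was -0.47, so relative to that median both stayed positive at 0.14 and 0.29. Ndn differed by 1.25 in neonate (SE 0.891, limma, adjusted p = 1) and by 0.17 in aged cells (SE 0.891, limma, adjusted p = 0.987). In aged cells Apeg3 differed by 0.56 (SE 0.422, limma, adjusted p = 0.791) and Peg3 by 0.63 (SE 0.664, limma, adjusted p = 0.884). The OPC marker sum was likewise higher on gels than in primary cells in every neonate library.

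For the 6 members other than Ndn and Apeg3, 0 were called by limma for a difference between ages in the stiffness effect. Among all tested genes 0.0066% were called. Voom called 0 members, and 1 had an unadjusted p below 0.05, as did 793 of the 15144 tested genes. For the culture effect limma called 0 of the 6 as well, and 0.112% of all tested genes. Voom called 0 members there too, and 1 had an unadjusted p below 0.05, as did 843 of the tested genes. That member was Plagl1 in both.

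**Figure D5:**
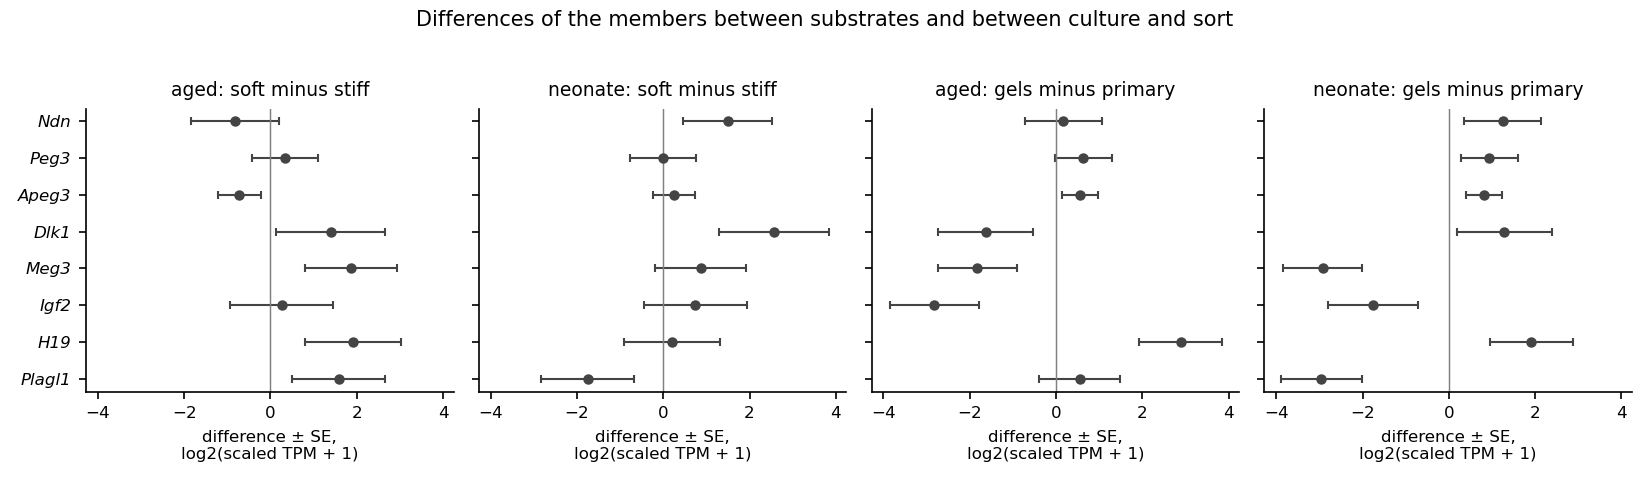
Differences of the 8 members on the log2(scaled TPM + 1) scale (horizontal axes) for soft minus stiff gels and for gels minus primary cells, in aged and in neonate cells; points are limma estimates and bars are ± 1 SE. Igf2 and H19 lie on opposite sides of 0 in aged gels minus primary, at -2.82 and 2.89.

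Other imprinted genes gave the setting for the 8. Of 65 on the list, 51 were in the files and 48 were tested. In primary cells 2 of 48 rose with age and 0 fell, against 1.94% of all tested genes higher and 0.66% lower; the median of the list was 0.89 and that of all genes 0.69. On stiff gels 0 rose and 1 fell, against 1.13% higher and 1.05% lower. On soft gels 0 of 48 were called by limma, with 1.37% higher and 0.191% lower among all tested genes. There 9 had an unadjusted p below 0.05, as did 2511 of the 15144 tested genes, and 4 were called by voom. The share of all genes that voom called was not counted. Between soft and stiff gels 0 were called by limma at either age, and voom called 0. An unadjusted p below 0.05 was found for 3 in aged and 1 in neonate cells. Among all 15144 tested genes it was found for 1646 and 438.

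Cdkn1c, the maternally expressed inhibitor of cyclin-dependent kinases (rn6 chr1:216661067-216663721), was at 0 in all aged stiff libraries and at 45.9, 61.8 and 33.4 scaled TPM in neonate stiff libraries. It fell with age on stiff gels (log2 difference -5.54, SE 1.07, limma, adjusted p = 0.00306) and was called under all 27 settings tried, with an adjusted p of at most 0.0298. On soft gels it was at 4.19, 7.98 and 6.47 (aged libraries) and 4.16, 12.4 and 26.5 (neonate libraries), with overlap. The neonate stiff libraries held 6.17 to 8.81 pairs of it. The OPC marker sum was lower in the same aged stiff libraries, and its part was not tested.

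Cd81, a tetraspanin on the surface of many cells including microglia (rn6 chr1:216237663-216253461), was at 108, 102 and 204 scaled TPM in aged primary and 29.7, 0.708 and 14.4 in neonate primary libraries. It rose with age there (log2 difference 3.83, SE 0.812, limma, adjusted p = 0.00787). The call was lost without aged primary replicate 3 (adjusted p = 0.0565, limma), without neonate primary replicate 2 (adjusted p = 0.0898, limma) and with only the compared groups fitted (adjusted p = 0.0595, limma). Gatm, an enzyme of creatine synthesis (rn6 chr3:114711570-114728155), was at 57.9, 100 and 128 in aged primary and 25.9, 14.0 and 28.1 in neonate primary libraries. Its rise (2.01, SE 0.551, limma, adjusted p = 0.0463) was lost in 16 of 27 settings, where its adjusted p ran to 0.329 (limma). Of these 12 left out 1 library, namely aged primary replicate 2 or 3, aged soft replicate 2, or any neonate library, with an adjusted p of 0.0534 to 0.249 (limma). Microglia markers were higher in the same aged primary libraries, and their part was not tested.

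Between gels and primary cells the list had 1 fall in aged cells, where 0.773% of all tested genes fell. Ube3a, the ubiquitin ligase expressed from the maternal copy in neurons (rn6 chr1:116587815-116678161), was at 13.5, 2.72 and 4.58 scaled TPM in aged soft and 3.77, 0 and 3.50 in aged stiff libraries, against 28.9, 46.3 and 42.5 in aged primary libraries. The difference was -3.19 (SE 0.805, limma, adjusted p = 0.0469), and 19 of 27 settings lost the call. Of these 15 left out 1 library, namely aged soft replicate 2 or 3, aged stiff replicate 2, any aged primary library or any neonate library, with an adjusted p of 0.0536 to 0.241 (limma). Markers of other cells moved with this comparison: those of microglia summed to 43.6 to 374 in aged gel and 2207 to 4539 in aged primary libraries, and those of the choroid plexus to 20.7 to 98.7 in aged gel and 1468 to 7038 in aged primary libraries. Their part in the Ube3a difference was not tested.

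Genes of the insulin-like growth factor system were read around Igf2. Of 15 on the list 14 were in the files and 13 were tested. Over the 9 comparisons limma called 1 of the 117 tests, 11 had an unadjusted p below 0.05 and voom called 2. Of all 15144 tested genes, limma called 0 to 394 per comparison, and 438 to 2511 had an unadjusted p below 0.05. Voom calls over all genes were not counted. The limma call of this list was a fall with age in primary cells, where 0.66% of all tested genes fell. Igfbp5, a secreted binding protein of these factors (rn6 chr9:80154230-80166813), was at 0.160, 0 and 0 scaled TPM in aged primary and 33.6, 51.6 and 44.9 in neonate primary libraries (difference -5.38, SE 1.10, limma, adjusted p = 0.00616). It was called under all 27 settings, with an adjusted p of at most 0.0378. The OPC marker sum was lower in the same aged primary libraries, and its part was not tested. The median of the list was -0.05 there, beside 0.69 for all genes. Of 48 microRNA entries of the imprinted clusters 45 were in the files and 5 were tested. Over the 9 comparisons limma called 0 of these 45 tests, 3 had an unadjusted p below 0.05 and voom called 0. The counts over all tested genes are those given above for the same comparisons.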

How the data were processed

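The deposited files hold annotated transcripts of 18 libraries with coverage, FPKM and TPM; per the file headers they were made by the authors with StringTie 1.3.2d against a UCSC annotation (rn6), with no strand option. The submitters' processing notes also name Trimmomatic, HISAT2 and Bowtie. The authors' TPM was summed per gene and scaled by the median-of-ratios method over the 1644 genes detected in every library. The 15144 genes that reached a TPM of 1 in 3 or more libraries were fitted as log2(scaled TPM + 1) with 6 group means in limma 3.58.1 (R 4.3.3), with a variance trend. P-values were adjusted by Benjamini and Hochberg at a threshold of 0.05. The method was tested on simulated data. At a mean of 5 to 100 read pairs, limma recovered 0 of 34 changes of 4-fold between ages in primary cells. It recovered 2 of 34 between neonate gels and primary cells, and 2 of 34 between soft and stiff neonate gels. Of 16-fold changes at these depths it recovered 54.5%, 63.6% and 48.5% in the same order. At a mean of 1 to 5 read pairs it recovered 3.03%, 33.3% and 12.1% of 16-fold changes. Dlk1, Meg3, Igf2, H19 and Plagl1 held 12.35 to 49.54 read pairs each over all 18 libraries, so the lower rates are the nearer ones for them. A difference that was not called can therefore be real. All 8 members passed the filter. Read pairs are coverage times length over 300 bases, an estimate, so voom on them is an alternative only.

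The members, lists and tests were chosen with earlier results of these data known. Age differences of members carry no test. Named genes are the 8 members, called genes of the lists of other imprinted, insulin-like growth factor and cluster microRNA genes, and the 5 genes most like each member at a mean scaled TPM of at least 5 without overlap. Library names inside the files do not match the replicate numbers of the titles, so numbers do not pair libraries. Of 153 pairs of libraries 0 were identical. Figures were drawn with matplotlib 3.10.9.

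Each result was recomputed with voom, with quantile normalization or unscaled TPM, with 0.1 added in place of 1, with the filter dropped or raised to a TPM of 5, with a replicate block, with only the compared groups, and without each library or the broad libraries. Levels relative to the OPC markers were added after seeing the data.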

Additional observations from a re-analysis of the deposited data

How the results depend on the processing

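The age differences of Ndn, Peg3 and Apeg3 kept their sign in all 27 planned settings. That count is no support, since the set was picked on these contrasts and the ages of these genes did not overlap. Relative to the OPC marker sum, chosen after seeing the data, Apeg3 was 0.653 and Peg3 0.606 in primary cells and Apeg3 0.732 on stiff gels. No library was left out for this measure. On soft gels quantile normalization turned the sign for Meg3 (-0.0119), and for Igf2 (-0.482) and H19 (-0.306), whose ages overlapped. Other age differences between overlapping groups turned in 2 settings for Meg3 in primary cells, and on stiff gels in 3 for Meg3 and 4 for Plagl1; H19 on soft gels also turned without neonate soft replicate 1 (-0.274). None of the sign changes below concerned a called difference. Soft minus stiff in aged cells turned for Ndn without the broad libraries (0.883), for Peg3 with quantile normalization (-0.402), and for Igf2 with quantile normalization (-0.876), voom (-0.505) and without the broad libraries (-0.43). In neonate cells it turned for Peg3 without scaling (0.422), with quantile normalization (0.0821) and with only the compared groups (0.0257), and for H19 with voom (-0.0454). Gels minus primary turned without scaling for Ndn in aged cells (-0.0172) and for Apeg3 (-0.329) and Peg3 (-0.179) in neonate cells. The interaction with stiffness turned for Peg3 without scaling (-0.233) and with quantile normalization (-0.484). The interaction with culture turned for Peg3 without scaling (0.686) and without the broad libraries (0.32), and for H19 with quantile normalization (-0.0168). The cause of these changes was not tested.

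With 1 library left out at a time, soft minus stiff ran in aged cells from -1.51 to 0.589 for Ndn, -0.13 to 0.611 for Peg3 and -0.367 to 1.47 for Igf2, and in neonate cells from -0.189 to 0.212 for Peg3 and -0.399 to 0.951 for H19. Gels minus primary in aged cells ran from -0.536 to 0.981 for Ndn and -0.344 to 1.21 for Peg3. Interactions with stiffness ran from -1.1 to 0.742 for Igf2 and -0.126 to 0.624 for Peg3, and the one with culture from -1.28 to 0.267 for Peg3.

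Called members numbered 0 in all settings except voom, which called 2 between gels and primary cells at either age. How many of all genes voom called was not counted. Calls among other imprinted genes between the ages in primary cells numbered 2, and 1 with a pseudocount of 0.1, without scaling or with quantile normalization, 4 with voom and 0 to 3 with a library left out. On soft gels they numbered 0, and 1 with quantile normalization or only the compared groups, 4 with voom, 3 without the broad libraries and 0 to 1 with a library left out. On stiff gels they numbered 1, and 1 to 2 with a library left out. For gels minus primary in aged cells there was 1, and 0 with a pseudocount of 0.1, no filter, no scaling or only the compared groups, 2 with voom and 0 to 1 with a library left out. In neonate cells there were 0, and 1 with voom and 2 with only the compared groups. For its interaction with age there were 0, and 1 with voom and 0 to 1 with a library left out.

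Replicate numbers share no source in the labels, and the deviations of same-numbered libraries correlated at -0.093 to 0.233. The fit with a replicate block gave 0 called members in each comparison. Depth limits these results: Dlk1, Meg3, Igf2, H19 and Plagl1 rest on few read pairs per library, so that no difference of theirs can be called absent. Ndn held 3.42 read pairs over the 9 aged libraries. For Ndn, Peg3 and Apeg3 too, a stiffness or culture difference that was not called cannot be called absent. In simulated data limma recovered 5.88% of 4-fold changes between neonate gels at a mean of 5 to 100 read pairs, and 0% at a mean of 1 to 5.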

Other observations

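Markers of further cell types were read in all libraries. The 10 fibroblast and mural markers summed to 33.8 to 105 scaled TPM in aged soft and 0 to 33.6 in neonate soft libraries, and to 21.8 to 184 in aged primary and 10.7 to 29.2 in neonate primary libraries. On stiff gels they summed to 1.32 to 132 in aged and 3.65 to 13.6 in neonate libraries, with overlap. The 7 endothelial markers summed to 19 to 87.1 in aged soft and 1.97 to 6.33 in neonate soft libraries, without overlap. Nor did the ages overlap on stiff gels, at 18.1 to 69.9 in aged and 0 to 3.42 in neonate libraries. In primary cells these markers were at 31.8 to 146 in aged and 18.3 to 21.4 in neonate libraries, again without overlap. The 8 astrocyte markers ran the other way on gels, at 37.0 to 148 in aged soft and 186 to 351 in neonate soft libraries. On stiff gels they were at 25.5 to 159 in aged and 212 to 353 in neonate libraries. In primary cells the ages overlapped, at 103 to 200 in aged and 173 to 217 in neonate libraries. The 5 ependymal markers overlapped between ages in primary cells, at 40.4 to 53.1 in aged and 38.4 to 72.9 in neonate libraries. They also overlapped on stiff gels, at 0 to 45.1 in aged and 28.3 to 75.6 in neonate libraries. On soft gels they did not, at 29.1 to 33.5 in aged and 33.8 to 39.1 in neonate libraries.

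Across the 18 libraries the Pearson correlation of log2(scaled TPM + 1) was 0.87 between Ndn and Peg3, 0.77 between Apeg3 and Peg3 and 0.74 between Ndn and Apeg3, all within the same libraries and age groups. The gene most like H19 was Ndufb7 (r = 0.81), that most like Plagl1 was Zswim5 (r = 0.74), and that most like Dlk1 was Mrps17 (r = 0.75).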
